A study of Mus musculus with 38 samples.

Results

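The 9 genes described here, Cx3cr1, P2ry12, Tmem119, Csf1r, Trem2, Tyrobp, Cd68, C1qa and Cd163, are genes of microglia, the resident macrophages of the brain, taken as a list of symbols from the 55298 genes of the count tables. The list uses no threshold on measured values, but it was drawn up with earlier results of these data known. They were followed in mouse cells and tissue in which Trim28, a co-repressor that holds endogenous retroviruses silent, had been disrupted. In the Emx1-Cre cross, bulk RNA-seq was made of the cortex at 3 months of age. It covered 3 Trim28-KO animals (Emx1-Cre +/-, Trim28-fl +/+) and 3 controls (Emx1-Cre +/-, Trim28-fl +/-), so that the controls had lost 1 allele themselves. The male parents of the cross also carried a gtRosa reporter allele, which the paper names for the offspring used for tissue staining. Single-nucleus RNA-seq was made from KO animals 60 and 73 and control animals 64 and 65. Emx1-Cre recombines in the progenitors of cortical excitatory neurons and glia, a lineage that does not give rise to microglia.

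The other bulk experiments served as a comparison of levels and of the response to Trim28 loss in other settings. Neural progenitor cells (NPCs) from Rosa26-Cas9 mice received lentiviral guide RNAs to Trim28 exon 3, 4 or 13 (6 libraries) or to lacZ (2 libraries) and were sorted after 10 days. Cas9-GFP mice received AAV vectors with the same guides and a nuclear RFP driven by the neuronal synapsin promoter (4 KO libraries and 1 lacZ control). Stop-Cas9-GFP mice received a synapsin-driven Cre in addition (4 KO libraries and 1 control). In each line the 4 KO libraries had different guides, to exon 3, 4, 13 or 3+4+13, with 1 library each. The tests pooled these guides as KO. Floxed Trim28 mice were co-injected with AAV vectors for Cre or nuclear GFP under synapsin (4 libraries labelled KO and 4 labelled control). The paper gives these mice as +/- and +/+, and the KO animals as +/+. In all 3 AAV experiments neuronal nuclei were sorted 2 months after injection.

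Microglia of the healthy brain are recognised by receptors that read signals from neurons and from damaged cells. Cx3cr1 binds the neuronal chemokine fractalkine, P2ry12 senses nucleotides, and Csf1r binds the growth factors on which microglia depend for survival. When microglia respond to injury or amyloid, the lipid receptor Trem2 signals through the adaptor Tyrobp, lysosomal Cd68 and complement C1qa often rise, and Cx3cr1, P2ry12 and Tmem119 often fall. Cd163, a scavenger receptor for haemoglobin, marks macrophages at the borders of the brain more than parenchymal microglia.

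Trim28 itself followed the labels in the cortex, where it was lower in KO (log2 fold change -1.39, SE 0.15, adjusted p = 0.000378), and in NPCs (-1.82, adjusted p = 0.031). In the flox experiment it went against them: the libraries labelled KO held 2349 to 2834 Trim28 counts and those labelled control 446 to 693 (log2 fold change 2.26, adjusted p = 2.74e-06), so directions there are given only as labelled. The change did not pass the test in Cas9-GFP nuclei (-0.53, adjusted p = 0.437) or Stop-Cas9-GFP nuclei (-0.03, adjusted p = 1), where a single control library limits what could be detected. Cortex libraries held 16748967 to 25345083 assigned counts, and each came from a separate animal.

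In the Trim28-KO cortex, levels of the homeostatic and activation genes lay close to those of the controls. None of the 8 genes that could be tested was called changed by edgeR (adjusted p below 0.05 and a log2 fold change beyond 0.5), against 1.33% of all 16271 genes tested, and Cd163 was the only one with an unadjusted p below 0.05. DESeq2 called 0 of them and also had 1 with an unadjusted p below 0.05. Of the 8 genes 4 had a higher and 4 a lower estimate in KO, with a median log2 fold change of 0.03 beside 0.01 for all genes. In whole tissue, fewer microglia and less RNA per microglial cell cannot be told apart.

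Among the homeostatic receptors, Cx3cr1 was at 77.7, 89.4 and 91.8 counts scaled to the normalized library size (CPM) in KO animals 60, 73 and 76 and at 70.4, 85.8 and 89.6 CPM in control animals 64, 65 and 77. P2ry12 was at 48.4, 53.5 and 60.5 CPM in KO and 48.6, 50.2 and 64.1 CPM in control. The 2 groups overlapped for both genes, and on this scaling the lowest and highest KO animals were the same, 60 and 76. The order of KO animals depends on the scaling. Animal 76 held the fewest KO counts of both genes (1160 and 765), and scaled to total counts (16748967) it was the lowest KO animal for both. The log2 fold change of Cx3cr1 was 0.08 (SE 0.11, 95% interval -0.17 to 0.32, adjusted p = 0.979). That of P2ry12 was -0.01 (SE 0.12, 95% interval -0.27 to 0.26, adjusted p = 0.999). For neither gene did the interval reach a log2 change of 0.5, the size required for a call.

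Tmem119, a membrane protein that separates microglia from blood-derived macrophages, was at 4.94, 5.37 and 8.31 CPM in KO and 6.23, 4.94 and 6.08 CPM in control. Csf1r was at 32, 43.5 and 49.3 CPM in KO and 40.3, 38.6 and 49.8 CPM in control. In both genes the control values lay within or near the KO range, and animal 76 again had the highest KO level on this scaling. Scaled to total counts, animal 76 stayed the highest KO animal for Tmem119 but not for Csf1r. The log2 fold change was 0.08 for Tmem119 (SE 0.20, 95% interval -0.36 to 0.52, adjusted p = 0.995). For Csf1r it was -0.05 (SE 0.15, 95% interval -0.37 to 0.28, adjusted p = 0.999).

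**Figure D1:**
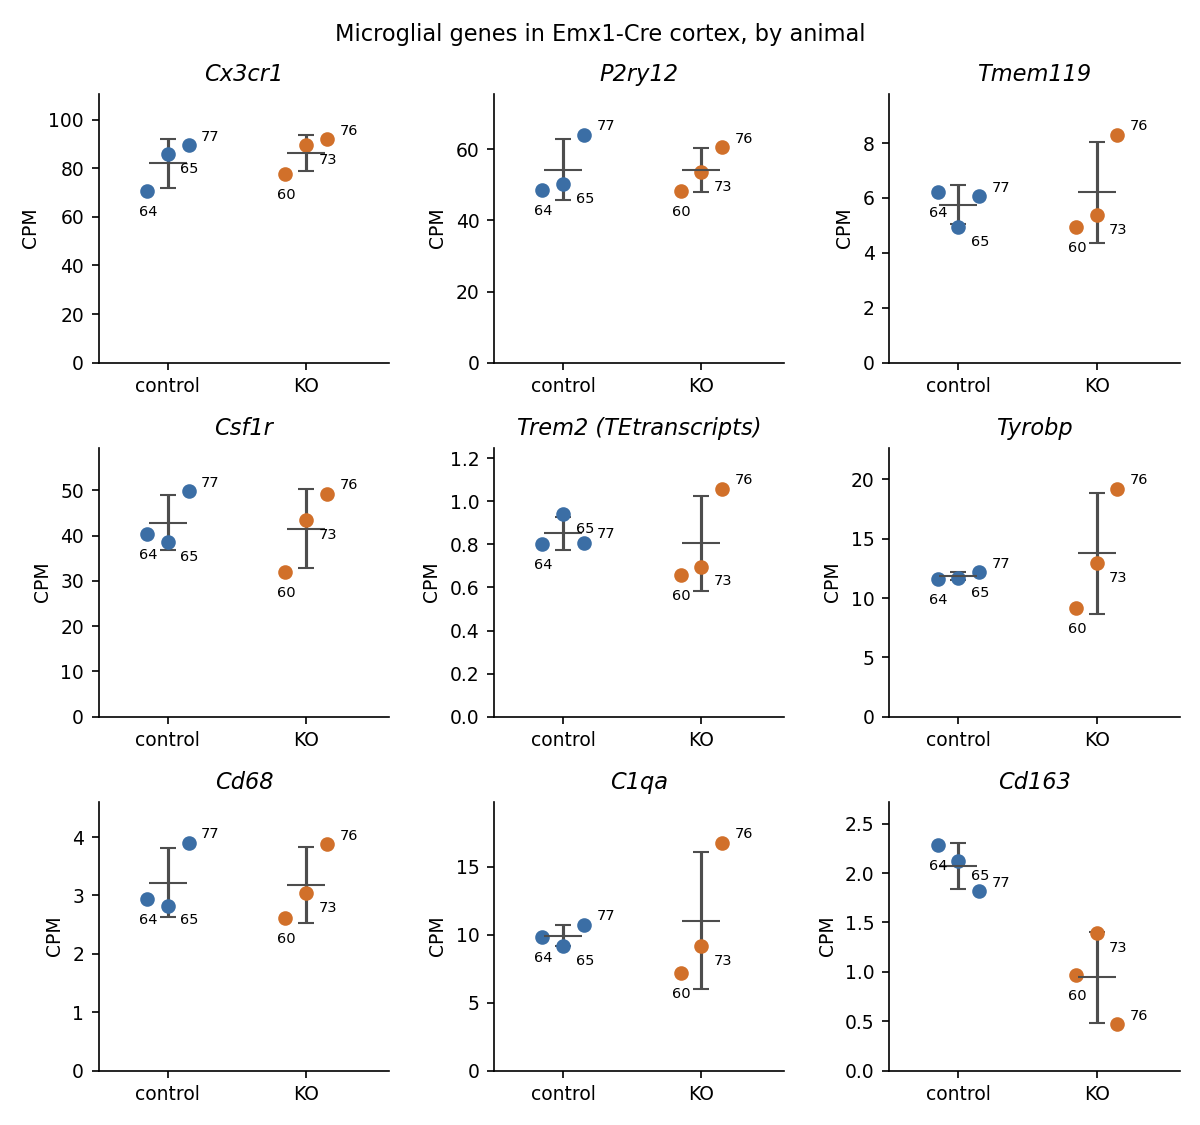
CPM of each gene in each cortex library (y axis, from 0) for control animals 64, 65 and 77 (blue) and KO animals 60, 73 and 76 (orange); horizontal lines are group means and bars 1 SD. Trem2 is drawn from the TEtranscripts counts. The groups overlap in every panel but that of Cd163, whose KO values of 0.475 to 1.39 CPM lie below the control values of 1.82 to 2.28 CPM.

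Of the activation genes, Tyrobp and C1qa varied more between KO animals than between controls. Tyrobp, which carries the signal of Trem2 and other receptors, was at 9.14, 13.0 and 19.2 CPM in KO and 11.6, 11.7 and 12.2 CPM in control. C1qa, a chain of the complement initiator C1q, was at 7.21, 9.14 and 16.8 CPM in KO and 9.86, 9.18 and 10.7 CPM in control. KO animal 76 lay above all controls for both genes and animal 60 below them, so that the log2 fold changes were 0.21 for Tyrobp (SE 0.21, 95% interval -0.25 to 0.66, adjusted p = 0.946) and 0.13 for C1qa (SE 0.25, 95% interval -0.40 to 0.66, adjusted p = 0.989). Without animal 76 the C1qa estimate was -0.28.

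Cd68, a glycoprotein of the lysosome, was at 2.61, 3.05 and 3.88 CPM in KO and 2.94, 2.82 and 3.91 CPM in control. Its log2 fold change was -0.04 (SE 0.21, 95% interval -0.49 to 0.41, adjusted p = 0.999). Trem2 could not be tested with featureCounts, which lists it at 0 in all 22 libraries for which its counts were used. In the TEtranscripts counts, which also place reads that map to several sites, it held 12, 14 and 14 counts in KO (0.656, 0.697 and 1.06 CPM) and 23, 18 and 19 in control (0.803, 0.941 and 0.808 CPM). The CPM ranges overlapped, with animal 76 highest once more. The edgeR fit of the TEtranscripts cortex counts called 0 members.

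Cd163 departed from the other genes. It held 17, 27 and 6 counts in KO (0.965, 1.39 and 0.475 CPM) and 63, 39 and 41 counts in control (2.28, 2.12 and 1.82 CPM). Every KO animal was below every control, and animal 76, the highest KO animal in the other genes on this scaling, was lowest here. By TEtranscripts Cd163 held 2 to 23 counts in KO (0.151 to 1.145 CPM) and 27 to 49 in control (1.149 to 1.71 CPM), so that the groups nearly touched. The log2 fold change was -1.06 (SE 0.30, 95% interval -1.73 to -0.40), with an unadjusted p below 0.05 that did not pass adjustment over all genes (edgeR, adjusted p = 0.161). DESeq2 gave -1.09 with an adjusted p of 0.176. Without the filter on low counts the gene was called lower (-1.09, adjusted p = 0.00785), with the same libraries in the fit and 0.741% of all genes called lower.

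Markers of other cells of the brain's borders had lower estimates in the same KO libraries. Of 10 border-associated macrophage genes 4 could be tested, none was called and all 4 had a negative estimate (median log2 fold change -0.43), with a summed level of 4.71 to 10.1 CPM in KO and 11.2 to 13.5 CPM in control. Mrc1, a mannose receptor of these macrophages, had a log2 fold change of -1.0 (adjusted p = 0.236), and F13a1, a clotting factor chain, one of -0.62 (adjusted p = 0.514). Of 12 meningeal genes 11 were tested and all 11 had a negative estimate (median -1.04). The lists were drawn up with earlier results of these data known, so their shared direction and calls are not independent of these libraries. Of these 2 were called lower, against 0.467% of all genes: the transporter Slc22a6 (-1.59, adjusted p = 0.0208) and the collagen Col1a2 (-1.08, adjusted p = 0.0244). With TEtranscripts counts Slc22a6 was no longer called (adjusted p = 0.0507) and the transcription factor Foxc1, named after its values were seen, was (-0.78, adjusted p = 0.0493). The meningeal list had a summed level of 65.2 to 151 CPM in KO and 198 to 283 CPM in control. Most of that sum was 1 gene, Ptgds, at 48.7 to 120 CPM in KO and 155 to 231 CPM in control, which was not called (edgeR, adjusted p = 0.0541). All 15 vascular and blood genes were tested without a call, 12 of them with a negative estimate (median -0.20), the lowest p being those of Vtn (-0.42, adjusted p = 0.267) and Pecam1 (-0.35, adjusted p = 0.322), and their sums were 232 to 305 CPM in KO and 291 to 327 CPM in control. The part of these border tissues in the Cd163 values was not tested.

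The promoters of 2 members are shown, P2ry12 because it holds the only motif match and Cd163 because it had the lowest cortex estimate. The windows are the 250 bases before the start of each gene, from RefSeq on GRCm38.p6, chr3:59262986-59263235 on the minus strand and chr6:124304401-124304650 on the plus strand, and capitals mark a match to AGGAAGT, a core recognised by the myeloid factor PU.1.
P2ry12: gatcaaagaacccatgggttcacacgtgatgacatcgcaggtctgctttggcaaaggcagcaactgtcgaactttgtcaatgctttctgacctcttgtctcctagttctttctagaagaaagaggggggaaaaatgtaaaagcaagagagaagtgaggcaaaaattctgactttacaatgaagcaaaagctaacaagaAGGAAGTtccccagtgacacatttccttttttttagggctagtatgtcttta
Cd163: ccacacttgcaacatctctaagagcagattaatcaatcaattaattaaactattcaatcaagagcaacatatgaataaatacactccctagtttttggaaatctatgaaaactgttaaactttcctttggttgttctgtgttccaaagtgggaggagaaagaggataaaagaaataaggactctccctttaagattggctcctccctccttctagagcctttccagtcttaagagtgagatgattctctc
Windows were found for 5 of the 9 genes (Cx3cr1, P2ry12, Trem2, Cd68 and Cd163), and P2ry12 alone held the core, on the gene's strand, with its first base 52 bases before the start. The core was searched on both strands, and 9.35% of 32851 promoter windows hold it. The longer GAGGAAGT, which contains the core, was in none of the 5 windows and in 3.20% of all windows.

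Per kilobase of exon, the order of cortex levels was led by P2ry12 (20.7 ± 2.43 CPM per kb, SD, n = 6 libraries), Tyrobp (18.7 ± 4.64) and Cx3cr1 (15.8 ± 1.62). C1qa (9.87 ± 3.14) and Csf1r (7.53 ± 1.34) followed, then Tmem119 and Cd68 (2.49 ± 0.521 and 2.49 ± 0.461), and last Cd163 (0.193 ± 0.115) and Trem2 (0.167 ± 0.0305). These levels came from TEtranscripts counts, and the low place of Trem2 rests on them, since featureCounts lists it at 0. In microglia nuclei, without scaling to length, Trem2 averaged 512 CPM. That was above Tmem119 (293 CPM), Tyrobp (240 CPM) and Cd68 (143 CPM), and below Cx3cr1, P2ry12, C1qa and Csf1r. The ranges of neighbours in this order overlapped, except that Csf1r (5.55 to 9.08) was above Tmem119 (1.98 to 3.43) and Cd68 (1.96 to 3.15) was above Cd163 (0.0277 to 0.313). On GRCm38 the genes lie apart from each other, for example Cx3cr1 at chr9:119901616-120069879, P2ry12 at chr3:59216272-59262871, Trem2 at chr17:48346401-48354147, C1qa at chr4:136895917-136898803 and Cd163 at chr6:124304656-124330527.

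Wider lists around these genes gave few calls. None of 13 further homeostatic genes was called (9 with a negative estimate, median log2 fold change -0.05), and their summed level was 500 to 627 CPM in KO and 512 to 571 CPM in control. The lowest p in that list belonged to Mertk, a receptor for engulfment of dying cells (0.32, adjusted p = 0.277), and to Cst3, a protease inhibitor (0.24, adjusted p = 0.518). None of 15 myeloid identity genes was called (3 with a negative estimate, median 0.10). Aif1, which encodes the microglial stain Iba1, was at 10.3, 8.00 and 15.2 CPM in KO and 7.54, 6.52 and 6.66 CPM in control, so that all KO animals were above all controls, but its log2 fold change of 0.67 did not pass adjustment (adjusted p = 0.21).

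Of the ligands and partners of the members 12 of 15 were tested, and 1 was called higher, against 0.86% of all genes. This was C4b, a complement component that is cleaved downstream of C1q, at 5.33, 6.14 and 5.94 CPM in KO and 2.75, 2.82 and 2.40 CPM in control (log2 fold change 1.13, SE 0.16, adjusted p = 0.00305). The KO values of C4b lay far above the controls, while C1qa beside it had overlapping groups. None of 16 tested genes (of 20) of the disease-associated programme was called (9 negative, median -0.02). Within it Cd52, a surface glycoprotein of leukocytes, had an estimate of 0.78 (adjusted p = 0.145) and Spp1, the secreted osteopontin, one of -1.14 (adjusted p = 0.126). None of 9 tested genes (of 18) for inflammatory mediators and antigen presentation was called (5 negative, median -0.08), and the lowest p was that of Ptgs2, an enzyme of prostaglandin synthesis (0.53, adjusted p = 0.543), followed by the NF-kB inhibitor Nfkbia (0.34, adjusted p = 0.562).

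Markers of the other cell types of the tissue gave no call. The 7 oligodendrocyte genes all had a negative estimate (median -0.26), with a summed level of 2307 to 2506 CPM in KO and 2846 to 3078 CPM in control, and the lowest p was that of the myelin gene Mobp (-0.37, adjusted p = 0.103). Among 7 neuronal genes the lowest p was that of Gad1, an enzyme of GABA synthesis (-0.18, adjusted p = 0.688), then Grin1, an NMDA receptor subunit (-0.12). Among 8 astrocyte genes it was that of Gfap, the filament of reactive astrocytes (0.54, adjusted p = 0.351), then Slc1a3, a glutamate transporter (-0.29).

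In the nuclei, microglia formed 1 cluster in which all 4 markers Inpp5d, Siglech, Runx1 and Ikzf1 were highest, and it held 691 of 13671 kept nuclei (6472 from control and 7199 from KO animals). The members were also highest there: Cx3cr1 averaged 1276 CPM in this cluster and 11.8 CPM in excitatory neurons. P2ry12 averaged 1348 and 18.4 CPM in the 2 classes, C1qa 1692 and 6.39 CPM, and Csf1r 1344 CPM in microglia. The share of all UMIs of a gene that lay in the microglia cluster was highest for Csf1r (83.3%) and Tmem119 (76.8%), and it was 69.9% for Trem2, 69.1% for C1qa, 51.8% for Cx3cr1 and 44.7% for P2ry12. Microglia held few UMIs (cluster median 1813) and neurons many. The level in excitatory neurons also differed by gene, at 2.25 CPM for Csf1r, 11.8 CPM for Cx3cr1 and 18.4 CPM for P2ry12. What set these shares was not tested.

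Microglia made up 6.72% of kept nuclei in control animal 64 (exact 95% interval 5.90 to 7.62) and 5.61% in control animal 65 (4.82 to 6.49), and 4.66% in KO animal 60 (3.99 to 5.39) and 3.40% in KO animal 73 (2.83 to 4.04). Both KO animals were below both controls, by 2.14 percentage points in the mean (exact permutation test, two-sided p = 0.333, the smallest that 2 against 2 allows). The intervals cover counting error only. Over all deposited barcodes the shares were 6.55% and 5.72% in control and 5.55% and 6.15% in KO, a difference of 0.283 points lower in KO (p = 0.667 in the same exact test).

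The filter on genes per nucleus removed microglia unequally from the 4 libraries. Its lower bound was set per library, and the lowest number of genes in a kept nucleus was 584 and 793 in control animals 64 and 65 and 931 and 1087 in KO animals 60 and 73. It removed 0 of 229 and 7 of 179 microglia from control animals 64 and 65, and 43 of 211 and 116 of 238 from KO animals 60 and 73. The median of genes per microglial nucleus before the filter was 1293 and 1226 in control and 1040 and 1094 in KO. Of the other nuclei it removed 1.97% to 4.54%.

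**Figure D2:**
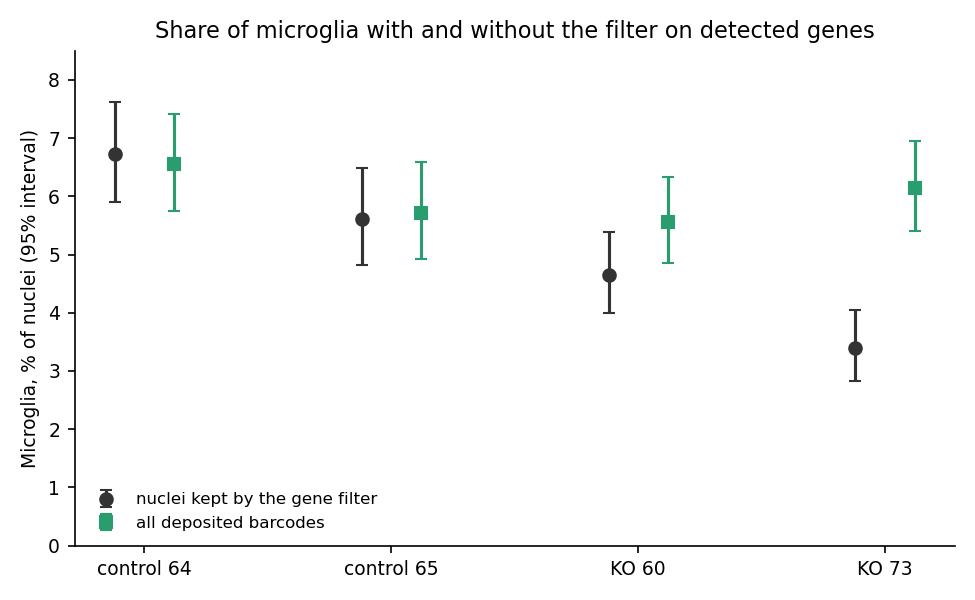
Microglia as a percentage of nuclei (y axis) in each animal, with exact 95% binomial intervals that cover counting error only, after the study's filter and over all deposited barcodes. After the filter the KO animals lie at 4.66% and 3.40%, below the controls at 6.72% and 5.61%, and over all barcodes the 4 values lie between 5.55% and 6.55%.

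Within microglia nuclei, no member passed the test. None of the 9 genes was called by edgeR on summed counts per animal, where 0% of all 6087 genes tested were called and 430 had an unadjusted p below 0.05. Cd163 was the only member with such a p, and DESeq2 also called 0 members and had 1 such p. Estimates were higher in KO for 7 genes and lower for 2 (median 0.13, beside -0.01 over all genes).

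Cx3cr1 was at 1400 and 1016 CPM in control animals 64 and 65 and at 1227 and 1461 CPM in KO animals 60 and 73 (log2 fold change 0.11, SE 0.19, adjusted p = 0.964). P2ry12 was at 1599 and 1231 CPM in control and 1137 and 1426 CPM in KO (-0.19, SE 0.19, adjusted p = 0.895). Csf1r was at 1402 and 1241 CPM in control and 1401 and 1331 CPM in KO (0.01, SE 0.16, adjusted p = 0.997). The groups overlapped for all 3 receptors. Tmem119 was at 333 and 174 CPM in control and 330 and 334 CPM in KO (0.32, SE 0.26, adjusted p = 0.858), with 1 control as high as the KO animals and the other low.

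Trem2, which the featureCounts fit of the cortex could not test, was at 530 and 347 CPM in control and 605 and 568 CPM in KO, both KO animals above both controls (0.37, SE 0.21, adjusted p = 0.792). Tyrobp was at 292 and 155 CPM in control and 254 and 260 CPM in KO. C1qa was at 2139 and 798.6 CPM in control and 1968 and 1864 CPM in KO, and Cd68 at 197 and 88.4 CPM and at 139 and 147 CPM. For these 3 genes the KO values lay between the controls, and control animal 65 was the lowest of the 4. The log2 fold changes were 0.13 for Tyrobp (adjusted p = 0.971), 0.33 for C1qa (adjusted p = 0.882) and -0.08 for Cd68 (adjusted p = 0.988). C1qa was also lowest in control animal 65 among excitatory neurons, at 9.06 and 3.32 CPM in control and 6.06 and 7.14 CPM in KO. Without control animal 65 the C1qa estimate was -0.22, and without control animal 64 it was 1.24.

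**Figure D3:**
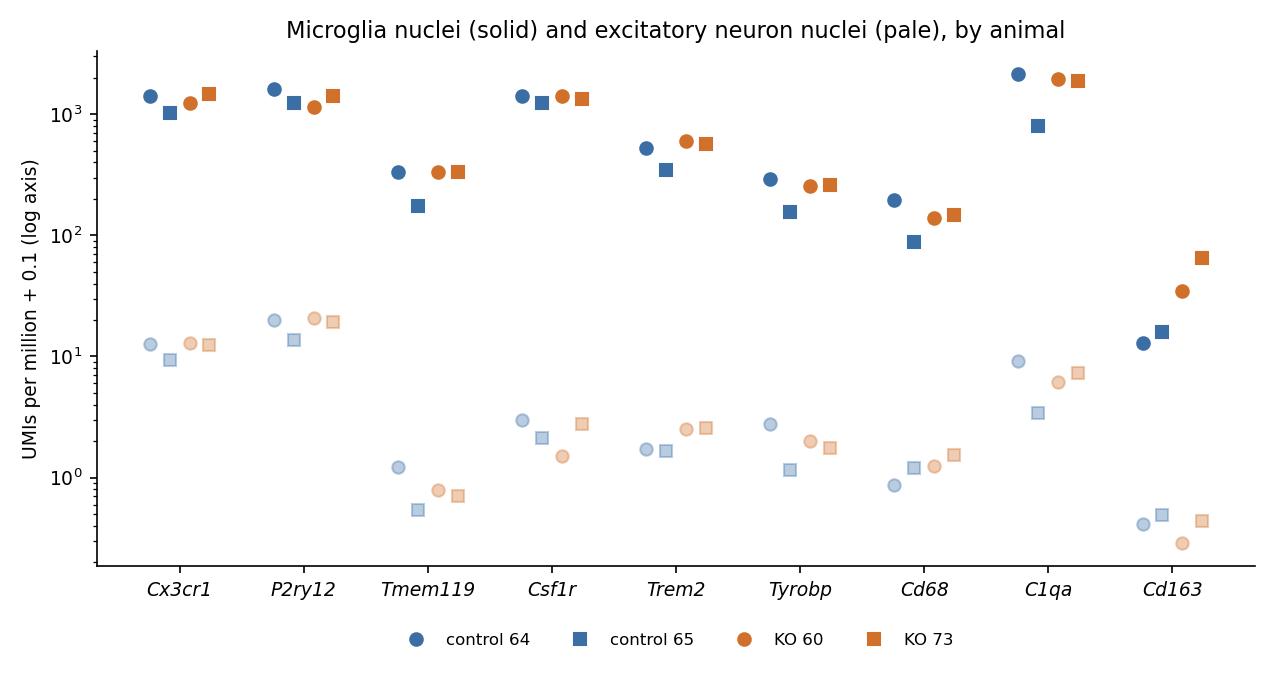
UMIs of each gene scaled to the total of its class, as CPM (y axis, log scale with a small offset), in microglia nuclei (solid) and excitatory neuron nuclei (pale), 1 point an animal, controls in blue and KO in orange. The microglia points lie far above the neuron points for every gene. Among microglia, control animal 65 has the lowest value of Cx3cr1, Tmem119, Csf1r, Trem2, Tyrobp, Cd68 and C1qa, and for Cd163 both KO animals (34.8 and 65 CPM) lie above both controls (12.7 and 15.8 CPM).

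Cd163 in microglia nuclei had the opposite sign to the cortex. It was at 12.7 and 15.8 CPM in control and 34.8 and 65 CPM in KO (log2 fold change 1.73, SE 0.55, 95% interval 0.56 to 2.91, adjusted p = 0.454). These levels rest on 6 and 5 UMIs in control and 10 and 15 UMIs in KO, in 2, 1, 3 and 3 nuclei. All 9 nuclei carried UMIs of at least 2 border-associated macrophage markers, and such nuclei numbered 8 and 6 in control and 7 and 3 in KO within the microglia cluster. Of the 70 Cd163 UMIs in all kept nuclei, 36 lay in this cluster and 30 in excitatory neurons.

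**Figure D4:**
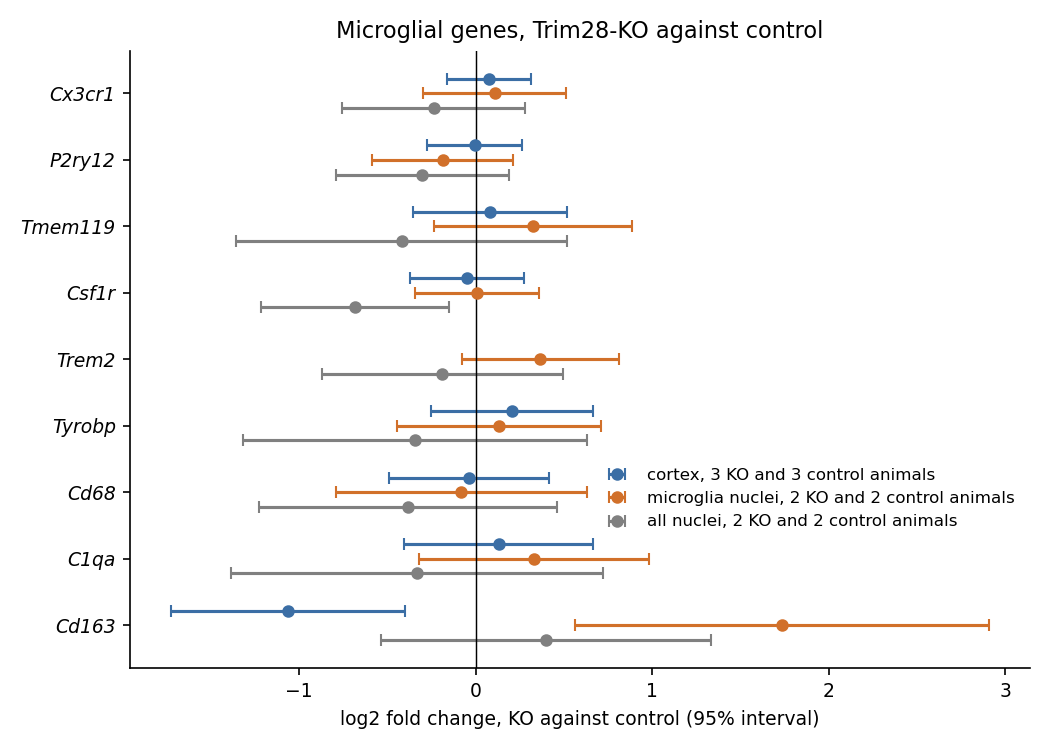
Log2 fold change of each gene, KO against control (x axis), with its 95% interval, in cortex (blue), in microglia nuclei (orange) and in all nuclei summed (grey). Trem2 has no cortex point. Cortex and microglia points of the homeostatic and activation genes have intervals that include 0, the grey points of these genes all lie below 0 with the interval of Csf1r (-1.22 to -0.15) not reaching it, and the cortex and microglia intervals of Cd163, at -1.06 and 1.73, lie on opposite sides of 0.

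The share of microglia nuclei with at least 1 UMI of Cx3cr1 was 80.8% to 90.0% in the 4 animals, beside 10.2% to 14.0% of excitatory neurons, whose nuclei held a median of 10398.5 to 11842.5 UMIs, against 1570 to 1969 for microglia. With every nucleus thinned to 500 UMIs, with no microglia or excitatory nucleus left out, the share was 46.7% and 37.8% in control microglia and 42.3% and 50.8% in KO microglia, beside 0.325% to 0.691% of excitatory neurons. Trem2 was found in 24.0% and 15.7% of control and 26.2% and 23% of KO microglia at that depth, and C1qa in 61.1% and 36.0% of control and 57.1% and 60.7% of KO microglia. For these 3 genes the groups overlapped, with control animal 65 the low value. The mean share was higher in KO for 8 of the 9 genes at that depth, the exception being Cd68 (4.43% in KO and 5.97% in control). Some of these means nearly tied, as for Csf1r (46.4% and 46.1%) and P2ry12 (46.3% and 46.0%). All shares are of kept nuclei, after the filter had removed 20.4% and 48.7% of KO microglia and 0% and 3.91% of control microglia. Without thinning and at 1000 UMIs the exception was P2ry12 instead (83.1% and 89.6% without thinning). No order of KO and control is read from these means for any of the genes.

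Over all kept nuclei summed, estimates of 8 genes were lower in KO and Cd163 was higher (median log2 fold change -0.33, beside 0.00 over all genes). None was called by edgeR, against 4.16% of 17400 genes, and Csf1r had the only unadjusted p below 0.05. Csf1r was at 26.6 and 15.6 CPM in control and 14.3 and 12.2 CPM in KO (log2 fold change -0.68, SE 0.23, adjusted p = 0.125), and DESeq2, which called 1 member, called it lower (adjusted p = 0.0369), in a test that called 4.05% of all genes lower. Over all deposited barcodes its estimate was -0.28. Leaving out control animal 65 gave 7 members called lower (all but Trem2 and Cd163), where 5.95% of all genes were called lower. Leaving out control animal 64 gave C1qa alone, called higher, where 15.2% of all genes were called higher. Each of these refits has a single control library, assumed to vary like the KO libraries, so the calls turn on which control is used. The lower share of kept microglia in the KO animals moved with these values, and its part in them was not tested.

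Outside whole cortex the genes fell into 2 sets. Cx3cr1, P2ry12, Tmem119, Csf1r, Trem2, Tyrobp and C1qa were highest in cortex, at a mean of 71.0 CPM for Cx3cr1, against 4.47 CPM in Cas9-GFP, 3.35 CPM in Stop-Cas9-GFP and 0.363 CPM in flox nuclei. In the 8 NPC libraries Cx3cr1, Tmem119, Trem2, Tyrobp and C1qa were listed at 0. P2ry12 was at 52.7 CPM in cortex and at 6.98, 2.78 and 0.352 CPM in the same order of sorted nuclei. Cd68 ran the other way, at 3.13 CPM in cortex and 11, 11.9 and 11.4 CPM in the sorted nuclei, and Cd163 was at 1.05 CPM in cortex and 1.37, 1.70 and 1.23 CPM in them. Experiments differ in tissue, RNA compartment and library set, so these levels are a description.

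**Figure D5:**
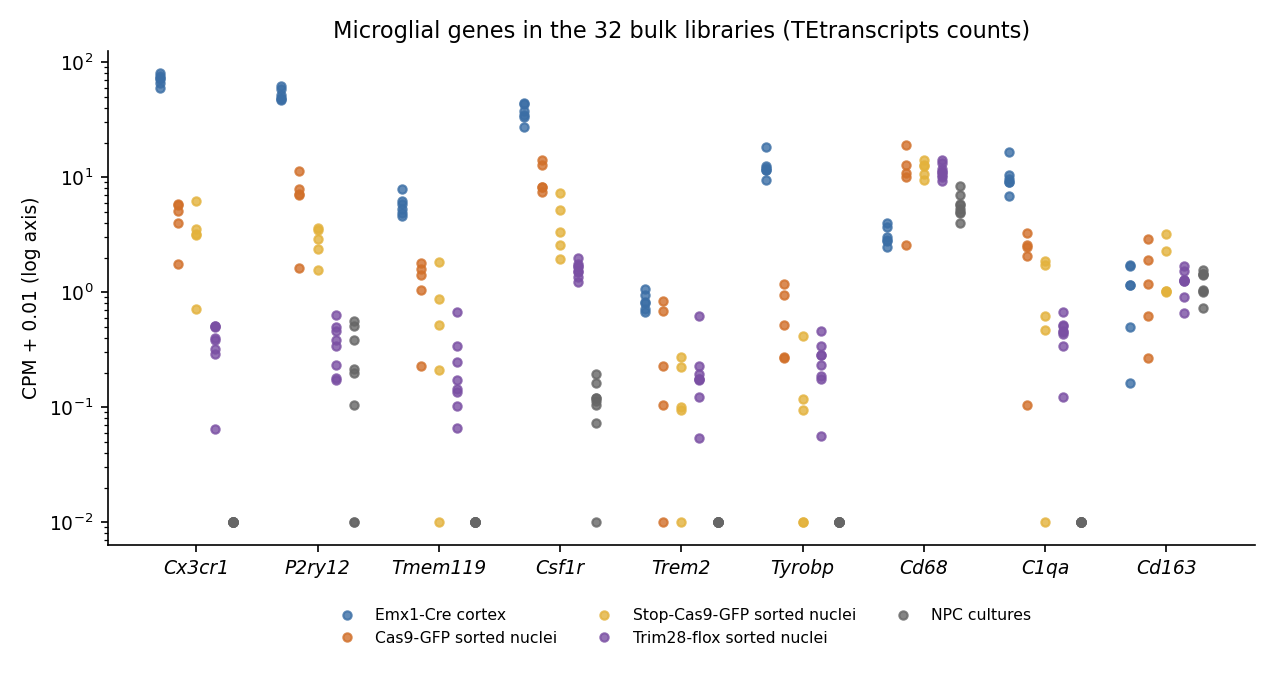
CPM of each gene in every bulk library (y axis, log scale with an offset for values of 0), grouped by experiment, from TEtranscripts counts. The 7 genes other than Cd68 and Cd163 are highest in cortex, and Cd68 has its lowest mean there among the brain samples, 3.13 CPM.

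For Csf1r, Cd163 and Trem2 the low levels depended on the counting. In cortex Trem2 was listed at 0 by featureCounts and held 12 to 23 counts by TEtranscripts. Csf1r held 535 to 934 counts in the flox libraries by featureCounts and 24 to 42 by TEtranscripts, and in NPCs 34 to 96 and 0 to 3. Csf1r shares 15.1% of its exon bases with Hmgxb3 on the opposite strand. Cd163 held 96 to 183 counts in the flox libraries by featureCounts and 14 to 31 by TEtranscripts, and in NPCs 196 to 405 and 14 to 30, with no annotated gene over it. What made the counts differ was not tested. Of the other genes, Cx3cr1 and P2ry12 share under 2% of their exon bases with an opposite-strand gene.

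None of the genes was called in the other bulk experiments. In flox nuclei 3 genes could be tested by edgeR (0 called, 0 with an unadjusted p below 0.05, and DESeq2 0 and 1), against 0.0409% of all genes called. Csf1r was at 535, 587, 714 and 756 counts in libraries labelled KO and 934, 659, 849 and 661 in those labelled control (log2 fold change -0.21, SE 0.10, adjusted p = 0.971). These raw counts overlapped, but on the CPM scale the groups were apart, at 29.7 to 35.9 in KO-labelled and 37.4 to 39.7 in control-labelled libraries. By TEtranscripts the CPM ranges overlapped (1.23 to 1.96 and 1.35 to 1.74). Cd68 had an estimate of -0.22 (SE 0.16) and Cd163 one of 0.14 (SE 0.25).

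In NPCs 3 genes could be tested (0 called by edgeR, 0 with an unadjusted p below 0.05, and DESeq2 0 and 1), against 0.194% of all genes. The estimates were -0.25 for Csf1r (SE 0.37), 0.11 for Cd68 (SE 0.30) and 0.43 for Cd163 (SE 0.20, adjusted p = 1). The other 6 genes did not pass the filter on low counts.

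In Cas9-GFP nuclei 8 genes were tested (0 called by edgeR, against 0.0224% of all genes, with 1 unadjusted p below 0.05, and the same counts by DESeq2). C1qa held 29, 39, 28 and 29 counts in KO and 1 in the single control, so that the control stood apart (log2 fold change 4.63, SE 1.14, adjusted p = 0.414). Cd163 went the other way, with 7, 23, 16 and 3 counts in KO and 31 in the control (-1.55, SE 1.01). In Stop-Cas9-GFP nuclei 7 genes were tested with 0 called and 0 at an unadjusted p below 0.05 by edgeR and by DESeq2, against 0.00567% of all genes, and C1qa held 6, 0, 22 and 5 counts in KO and 16 in the control. The C1qa pattern of Cas9-GFP was thus not seen in both sets of nuclei. The 2 controls are 1 library each, so the spread of a control is taken from the KO libraries, which differ in guide.

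The difference between the Emx1-Cre and flox effects was tested for 8 genes as an interaction, and none was called, against 0.315% of all genes. Only Cd163 had an unadjusted p below 0.05 (-1.27, SE 0.45, adjusted p = 0.462). DESeq2 was not run for this test. Since Trim28 went against the flox labels, these values, and which genes have a low p, hold only for the labels as given.

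The genes most like the members across the 32 bulk libraries, by Pearson correlation with their mean log2 level, were Mog (r = 0.989), Mpeg1 (0.988), Evi2a (0.987), Ctss (0.987) and Fam107a (0.983). Of these Mpeg1 and Ctss are genes of macrophages and Mog one of oligodendrocytes. Most members correlated with that mean in the same way (Cx3cr1 0.988, Tyrobp 0.950, Trem2 0.905), but Cd163 (0.109) and Cd68 (-0.360) did not. The libraries share experiments and tissue, so these values describe the contrast of cortex with sorted nuclei and NPCs. Within the 6 cortex libraries the nearest genes were Ube3b (r rounding to 1.0), Gm13127 (0.993), Fcrls (0.991), Gm16286 (0.991) and Fam213a (0.990), of which Fcrls is a microglial receptor.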

How the data were processed

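Per the labels and the study's methods, the authors mapped reads with STAR 2.6.0 to GRCm38 and made 2 tables of gene counts: featureCounts (Subread 1.6.3) on uniquely mapped, strand-specific reads, and TEtranscripts, which shares reads that map to several sites. Nuclei were counted as UMIs (deposited counts) with Cell Ranger 3.0. The featureCounts table was used for cortex, flox and NPC libraries and the TEtranscripts counts for Cas9-GFP and Stop-Cas9-GFP, since 10 columns of the featureCounts table were not used. This departs from the planned table for those 2 experiments. Levels across experiments and Trem2 came from TEtranscripts. Repeat-element tables and CUT&RUN files were not used here.

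Counts were tested with edgeR 4.0.16 (TMM, filterByExpr, quasi-likelihood, Benjamini-Hochberg adjustment), with DESeq2 1.42.0 as an alternative, each experiment fitted alone except for the Emx1-Cre against flox interaction and an alternative with both Cas9 lines in 1 fit. A bulk gene was called at an adjusted p below 0.05 and a log2 fold change beyond 0.5, and a gene of summed nuclei at an adjusted p below 0.05. Nuclei within 3 median absolute deviations of each library's genes per nucleus were kept (13671 of 14296), clustered with Seurat 5.3.0 (2000 variable genes, 20 components, resolution 0.1), and summed per animal. Scrublet marked 193 doublets (0.316% to 1.92% of a library), which stayed in, and library pairs shared 0 to 20 barcodes. Motifs were searched in RefSeq promoters. The fits of each bulk experiment and of the summed microglia nuclei were tested on simulated counts, and the other steps were not. Members and lists were chosen with earlier results of these data known. Named genes were all members, the called genes of each list (up to 5) or, with none, the 2 with the lowest p, and the 5 most alike genes. Some genes named by this rule are not reported here.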

Additional observations from a re-analysis of the deposited data

Results flagged for a closer look

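Cd163 in replicate 2 of the Stop-Cas9-GFP KO nuclei, the library with the exon 3 guide alone, was at 2.28 CPM (26 counts). It stood apart from the other 3 KO libraries (exon 13, exon 4 and 3+4+13), which lay near 1.0 CPM. Guide and library cannot be told apart here. Tmem119 in 1 flox library labelled control, at 0.680 CPM (12 counts), stood apart from the other 3 labelled controls. These were 2 of 38 groups of 4 or more libraries examined for a single distant value, and chance alone gives about 1 in 20.

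The Cd163 log2 fold change was -1.06 in cortex, where every KO animal was below every control, and 1.73 in microglia nuclei, where both KO animals were above both controls. The difference between these 2 effects was not tested. The nuclei values rest on 36 UMIs, and the nuclei came from 4 of the 6 cortex animals.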

How the results depend on the processing

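No member was called under any alternative in flox, NPC, Cas9-GFP, Stop-Cas9-GFP or microglia nuclei, or in the Emx1-Cre against flox interaction. In cortex 1 was called without the filter on low counts (Cd163) and 0 otherwise. In all nuclei DESeq2 called 1 (Csf1r) and leaving out an animal gave 0 to 7. Of the listed cortex genes 3 were called, 7 by DESeq2, 3 with TEtranscripts counts (Foxc1 in place of Slc22a6), 16 without the filter and 1 to 8 with an animal left out: 7 without KO animal 73, 8 without KO animal 76, 1 without control 64 or control 77. The microglia share differed by -0.283 points over all barcodes and by -2.77 to -1.51 with an animal left out.

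Defining microglia by UMIs of at least 2 markers turned the estimates of Cx3cr1 (-0.055), Csf1r (-0.15) and Tyrobp (-0.072) negative, and that of Csf1r was also negative without the filter (-0.014) or without doublets (-0.023). Cd163 could not be tested under that definition. With an animal left out, cortex estimates ran from -0.027 to 0.15 (Cx3cr1), -0.088 to 0.13 (P2ry12), -0.16 to 0.21 (Tmem119), -0.18 to 0.11 (Csf1r), -0.091 to 0.43 (Tyrobp), -0.18 to 0.12 (Cd68), -0.28 to 0.36 (C1qa) and -1.46 to -0.80 (Cd163). In microglia they ran from -0.12 to 0.37 (Cx3cr1), -0.38 to 0.027 (P2ry12), -0.060 to 0.91 (Tmem119), -0.094 to 0.11 (Csf1r), 0.092 to 0.73 (Trem2), -0.24 to 0.70 (Tyrobp), -0.52 to 0.66 (Cd68), -0.22 to 1.24 (C1qa) and 1.26 to 2.15 (Cd163). The causes were not tested.

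With the culture series of the NPCs as replicate block, 0 members were called. Control and mean KO libraries of the same series deviated together (correlation 0.839), over only 2 series. Other replicate numbers pair no samples across groups. Cd163 rests on 6 to 63 counts a cortex library, and in Cas9-GFP and Stop-Cas9-GFP a single control library each limits the calls. TEtranscripts was no alternative for Cas9-GFP and Stop-Cas9-GFP, where it was the only table used.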
